A study of Mus musculus with 8 samples.

Results

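The 9 genes considered here mark Treg cells of non-lymphoid tissues and armed effector cells. They are the alarmin and IL-1 family receptors Il1rl1, Il18r1, Il18rap and Il1r2, the suppressive cytokine genes Il10 and Ebi3, the repair factor Areg, and the effector molecules Gzmb and Ifng. They were taken by symbol from the 42748 genes of the deposited count table, and each symbol had its most abundant Ensembl identifier kept. All 9 passed the filter on low counts, among 15063 genes tested.

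CD4+ CD25+ cells were sorted from pooled spleen and lymph nodes of chimeric female Ripk1 fl/fl Foxp3 Cre/wt mice into 2 fractions. The Ripk1-deficient fraction was YFP+ (Ripk1 -/-), in which the Foxp3 promoter drives a Cre-YFP fusion that deletes the floxed Ripk1 alleles, and its control was the YFP- (Ripk1+/+) fraction of the same kind of mice, which carries the same floxed alleles undeleted. Each fraction gave 4 bulk RNA libraries, numbered 21, 46, 48 and 53. The age of the animals is not given for these libraries, and neither is whether libraries came from separate mice, so p-values measure only the spread between libraries. The fractions differ both in Ripk1 and in expression of the Cre-YFP knock-in, and the effects of the 2 cannot be told apart here.

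Tissue Treg cells are a subset of effector Treg cells that settle in organs such as gut, skin and fat, and their precursors can be found in spleen and lymph nodes. Many carry ST2, the receptor for the alarmin IL-33, which damaged cells release, and the receptor for IL-18. Both belong to the IL-1 receptor family, whose ligand-binding chains pair with an accessory chain and signal through MyD88 and IRAK kinases to NF-κB. Treg cells that receive these signals can release amphiregulin, an EGF family growth factor that promotes tissue repair, along with suppressive cytokines.

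Ripk1, the targeted gene, lies on chromosome 13 of GRCm38 from 34002363 to 34037147. It measured 15.2, 28.7, 19.9 and 26.1 CPM (counts scaled to a common library size by the TMM method) in the YFP+ libraries 21, 46, 48 and 53, against 20.5, 44.3, 29.5 and 23.2 CPM in the YFP- libraries in the same order. By edgeR the log2 fold change was -0.38 ± 0.39 (standard error), with adjusted p = 0.713. A count over the whole gene does not show whether the floxed part is missing from its transcripts, so it checks the labels only weakly. Total counts ranged between 29719251 and 55371610 in YFP+ libraries and between 43737313 and 70782679 in YFP- libraries. The YFP+ library 21 stood apart: it held 9571 genes with at least 10 counts, against 13047 to 15550 in the other YFP+ libraries and 15425 to 16558 in YFP- libraries. Several results are therefore also given without it. A count of 0 allows up to 0.142, 0.0668, 0.0577 and 0.0688 CPM in the YFP+ libraries 21, 46, 48 and 53, against 0.0374 to 0.0620 CPM in YFP- libraries, at 3 counts per library and for counting error only.

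Among the 9, the 4 receptor genes sit together on chromosome 1. In 3 of them a promoter window matched a short motif, that of GATA factors, and Il18r1 had no such match in its 3 windows. The windows run from 250 bases before to 50 bases after each RefSeq start on GRCm38.p6, and 8 of the 9 genes had a window (11 windows in all); Il10 had none. Motifs were searched on both strands. Those of GATA factors were AGATAA and, with a different first base, TGATAA. The forkhead motif, of factors such as Foxp3, was TGTTTAC. The AP-1 motif was TGANTCA, and the κB consensus was searched as well. The windows of Il1rl1, Il18rap and Il1r2 are shown because these receptor genes carried GATA motifs and were near 0 in several YFP+ libraries. Capitals mark the GATA motifs and, in the downstream window of Il1rl1 only, also 1 forkhead motif, GTAAACA on the strand shown.
Il1rl1, upstream start, chr1:40429320-40429619, + strand: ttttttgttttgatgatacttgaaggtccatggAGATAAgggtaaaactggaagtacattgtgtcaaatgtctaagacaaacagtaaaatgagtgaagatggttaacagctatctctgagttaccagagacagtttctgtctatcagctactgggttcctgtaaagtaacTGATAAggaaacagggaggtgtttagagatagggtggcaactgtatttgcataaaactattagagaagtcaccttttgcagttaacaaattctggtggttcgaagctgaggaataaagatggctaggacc
Il1rl1, downstream start, chr1:40439379-40439678, + strand: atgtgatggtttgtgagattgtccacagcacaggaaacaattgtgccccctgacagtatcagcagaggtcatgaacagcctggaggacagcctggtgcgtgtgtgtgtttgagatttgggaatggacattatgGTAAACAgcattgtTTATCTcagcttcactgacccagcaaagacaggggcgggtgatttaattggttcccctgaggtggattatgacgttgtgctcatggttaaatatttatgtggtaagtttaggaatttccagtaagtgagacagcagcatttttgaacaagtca
Il18rap, chr1:40515112-40515411, + strand: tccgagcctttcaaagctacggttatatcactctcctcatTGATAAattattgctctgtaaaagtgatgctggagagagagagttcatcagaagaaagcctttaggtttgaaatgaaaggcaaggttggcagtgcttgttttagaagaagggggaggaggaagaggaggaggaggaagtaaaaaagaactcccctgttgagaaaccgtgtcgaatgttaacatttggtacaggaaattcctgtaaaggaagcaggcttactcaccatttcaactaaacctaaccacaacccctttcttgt
Il1r2, chr1:40085843-40086142, + strand: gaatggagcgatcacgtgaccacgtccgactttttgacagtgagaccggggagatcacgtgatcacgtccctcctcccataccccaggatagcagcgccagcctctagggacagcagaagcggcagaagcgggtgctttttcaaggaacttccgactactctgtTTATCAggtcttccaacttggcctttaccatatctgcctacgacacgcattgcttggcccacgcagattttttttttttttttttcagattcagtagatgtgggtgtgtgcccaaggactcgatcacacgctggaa
GATA motifs were found in 4 of the 11 windows (3 of the 8 genes), against 18.6% of all 32851 promoter windows, a share per window and not per gene. Il1rl1 carried 2 in its upstream and 1 in its downstream window. The forkhead motif was found in 1 of the 11 windows, of Il1rl1 (3.65% of all windows), the AP-1 motif in 1, of Gzmb (7.81%), and the κB consensus in 1, of Ebi3 (8.46%), at 2 places. These are matches of letters within short windows, described as such.

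Across the 9 genes, the level was lower in YFP+ than in YFP- libraries for all 9 by fold change, with a median log2 fold change of -2.63, against -0.02 over all genes tested. A log2 fold change below 0 was found for 50.9% of genes tested. None of the 9 passed the threshold of 0.05 on the adjusted p of edgeR's quasi-likelihood test, which called 126 genes lower (0.836%) and 5 higher. In 3 of them (Areg, Il1r2 and Ebi3) the unadjusted p was under 0.05, against 5.35% of genes tested that were lower at this level. In 6 of the 9 (Il1rl1, Il1r2, Ebi3, Areg, Gzmb and Ifng) every YFP+ library lay below every YFP- library, which held for 10.6% of genes tested. DESeq2, run as an alternative, called 1 of the 9 lower, Areg (4.43% of its genes), and gave 5 an unadjusted p under 0.05, against 7.39% of genes with counts that were lower at this level. In bulk RNA, fewer cells of a type and less RNA per cell cannot be told apart.

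**Figure D1:**
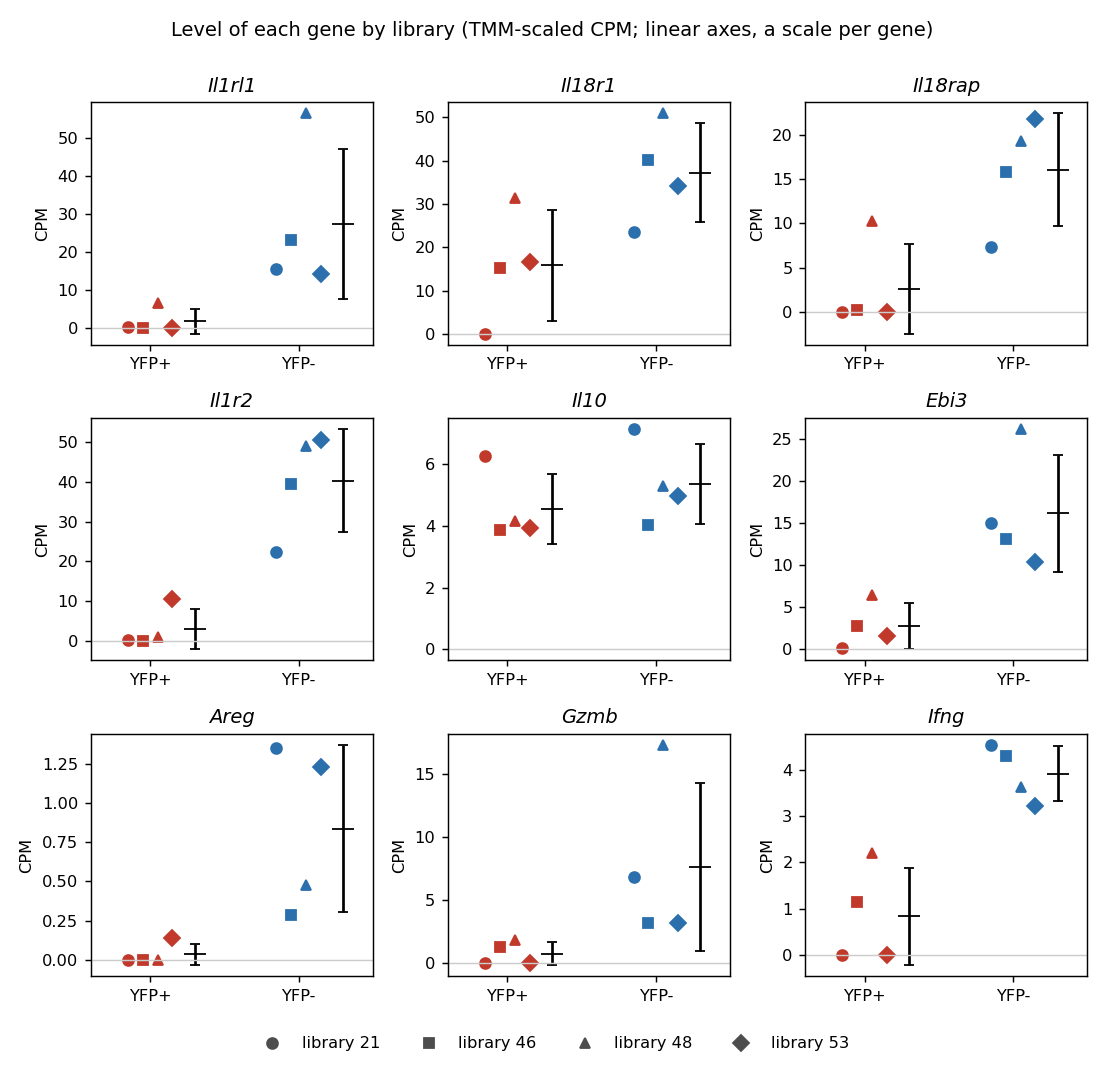
Level of each of the 9 genes in every library, in TMM-scaled CPM on linear axes with a scale per gene. YFP+ libraries (red) stand left of YFP- libraries (blue), symbols give the library number, and the black bar is the mean ± SD (n = 4). The groups overlap for Il18r1, Il18rap and Il10 and are apart for the other 6.

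Il1rl1 encodes ST2, the chain that binds IL-33. It is annotated on the plus strand of chromosome 1 from 40429570 to 40465415 (GENCODE M21, GRCm38). It stood at 0.0474, 0.0223, 6.50 and 0 CPM in the YFP+ libraries 21, 46, 48 and 53, against 15.6, 23.2, 56.6 and 14.2 CPM in the YFP- libraries in the same order. In counts, the YFP+ libraries held 1, 1, 338 and 0, and the YFP- libraries 1179, 1857, 2740 and 1030. The YFP+ libraries 21, 46 and 53 were thus at or near 0, library 48 alone held the rest, and even it lay below every YFP- library. The means were 1.64 ± 3.24 CPM in YFP+ and 27.4 ± 19.9 CPM in YFP- libraries (SD, n = 4 each), and edgeR put the log2 fold change at -4.05 ± 1.97 (standard error) with adjusted p = 0.432. Without the YFP+ library 48 the adjusted p was 0.0435, in a fit that called 1.49% of genes lower. That fit left out the library with the highest Il1rl1 value of the fraction, so its p-value is only a description. The 3 remaining YFP+ libraries then held 2 counts in all, or 0.0741% of the YFP- level (95% exact interval 0.00897% to 0.268%, counting error only). No other of the 9 passed the threshold when any single library was left out.

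Il18r1 encodes the chain that binds IL-18. Its annotated span, chromosome 1 from 40465552 to 40500854, starts 136 bases beyond the end of Il1rl1. It had 0.142, 15.3, 31.5 and 16.8 CPM in the YFP+ libraries 21, 46, 48 and 53, against 23.5, 40.0, 50.9 and 34.2 CPM in the YFP- libraries. Apart from library 21, with 3 counts, all YFP+ libraries kept the transcript at 686 to 1636 counts. The value of the YFP+ library 48 lay above the lowest YFP- value, so the groups overlapped. The means were 15.9 ± 12.8 CPM in YFP+ and 37.2 ± 11.4 CPM in YFP- libraries (SD, n = 4 each), and edgeR put the log2 fold change at -1.22 ± 1.06 (standard error) with adjusted p = 0.658. These were -0.82 ± 0.36 and 0.211 without the YFP+ library 21.

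Il18rap encodes the accessory chain that the IL-18 receptor needs to signal, and lies on chromosome 1 from 40515362 to 40551705. It stood at 0, 0.134, 10.2 and 0 CPM in the YFP+ libraries 21, 46, 48 and 53, against 7.31, 15.9, 19.4 and 21.9 CPM in the YFP- libraries. Among the YFP+ libraries, 48 held 532 counts and 46 held 6, and the value of 48 lay above the lowest YFP- library. The means were 2.59 ± 5.10 CPM in YFP+ and 16.1 ± 6.37 CPM in YFP- libraries (SD, n = 4 each), and edgeR put the log2 fold change at -2.63 ± 1.93 (standard error) with adjusted p = 0.593. Leaving out the YFP+ library 48 gave a fitted value of -8.30 and an adjusted p of 0.0542. The 2 chains of the IL-18 receptor did not move in a fixed ratio. For every 100 counts of Il18r1 there were 0.875, 32.5 and 0 counts of Il18rap in the YFP+ libraries 46, 48 and 53, against 31.1, 39.7, 38.1 and 64.0 in the YFP- libraries 21, 46, 48 and 53. Library 21 of the YFP+ fraction, with 3 counts of Il18r1, gives no usable ratio. The YFP+ libraries 46 and 53 thus kept the binding chain with the accessory chain at or near 0.

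Il1rl1 showed the same picture against its neighbour. For every 100 counts of Il18r1 there were 0.146, 20.7 and 0 counts of Il1rl1 in the YFP+ libraries 46, 48 and 53, against 66.4, 57.9, 111 and 41.6 in the YFP- libraries 21, 46, 48 and 53. The ratio of raw counts within a library does not depend on the scaling between libraries.

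Il1r2 encodes the decoy receptor for IL-1, which binds the cytokine and does not signal. It lies on chromosome 1 from 40074079 to 40125231, where 75.2% of the locus overlaps no other annotated gene. It had 0.237, 0.0445, 1.02 and 10.6 CPM in the YFP+ libraries 21, 46, 48 and 53, against 22.4, 39.5, 49.0 and 50.5 CPM in the YFP- libraries. Here the highest YFP+ library was 53, not 48, and even its value lay under the lowest YFP- value. The means were 2.98 ± 5.11 CPM in YFP+ and 40.3 ± 12.9 CPM in YFP- libraries (SD, n = 4 each), and edgeR put the log2 fold change at -3.75 ± 1.46 (standard error) with unadjusted p = 0.0323 and adjusted p = 0.352. With the YFP+ library 53 left out, the fitted value was -6.52 and the adjusted p 0.0717. Il1r2 had the highest level of the 9 per kilobase of exon in YFP- libraries.

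**Figure D2:**
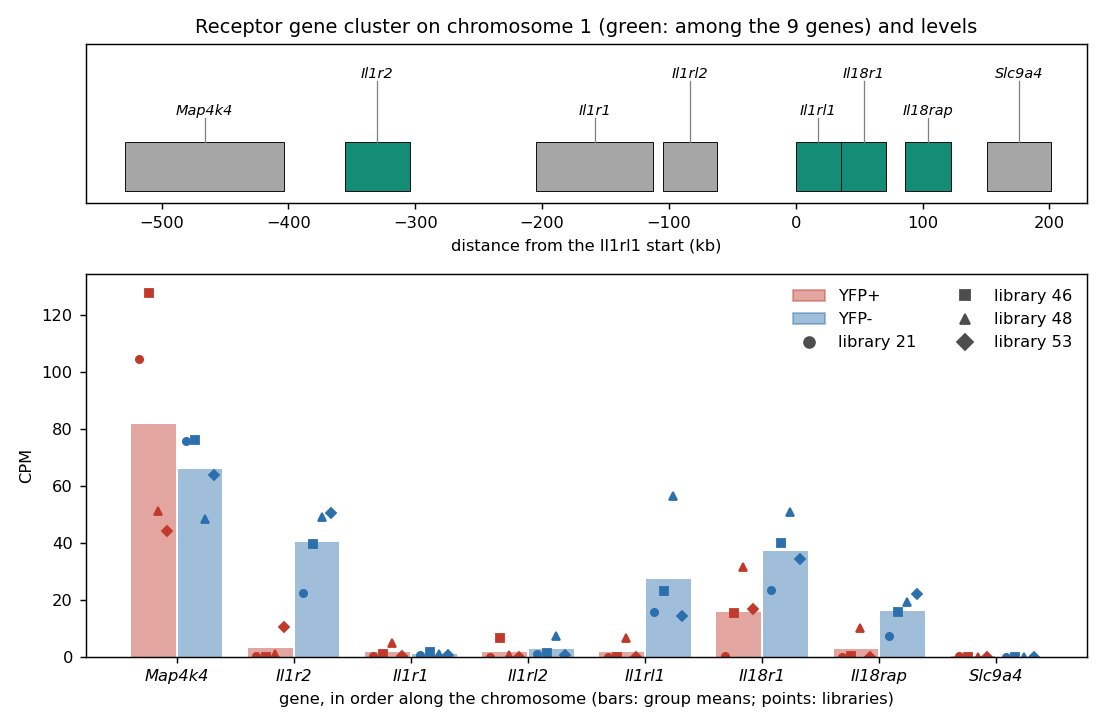
Map of the receptor genes on chromosome 1 in kilobases from the Il1rl1 start (top; genes of the 9 in green) and their levels in TMM-scaled CPM (bottom; bars are means of 4 libraries, YFP+ red at left and YFP- blue at right, symbols are single libraries). Il1r2, Il1rl1, Il18r1 and Il18rap have lower YFP+ bars, and the bars of Map4k4 and Il1r1 are not lower in YFP+.

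The 4 receptor genes lie within 478 kilobases, between Il1r2 and Il18rap, together with 2 further receptor genes, Il1r1 and Il1rl2. Il1r1, the signalling IL-1 receptor, had 0.379, 1.02, 4.77 and 0.390 CPM in the YFP+ libraries 21, 46, 48 and 53, against 0.636, 1.82, 0.827 and 0.635 CPM in the YFP- libraries (log2 fold change 0.75 ± 0.92, standard error, with adjusted p = 0.771 from edgeR). Il1rl2, a receptor for IL-36, had 0.0948, 6.59, 0.731 and 0 CPM in the YFP+ libraries, against 0.980, 1.29, 7.34 and 0.746 CPM in the YFP- libraries (log2 fold change -0.47, adjusted p = 0.931 from edgeR). Both were low in both fractions, and their groups overlapped. Map4k4, the kinase gene next to Il1r2, measured 44.0 to 128 CPM in YFP+ libraries, against 48.5 to 76.2 CPM in YFP- libraries (log2 fold change 0.31, adjusted p = 0.776 from edgeR). Slc9a4, on the other side, stayed under 0.34 CPM in every library. Of 11 genes listed for this region, 8 were tested, and 0 passed the threshold; the median log2 fold change of the 4 tested that are not among the 9 was 0.02.

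Ebi3 encodes a subunit shared by the cytokines IL-27 and IL-35, and IL-35 is a suppressive product of Treg cells. It lies on chromosome 17 from 55952640 to 55957022, where only 48.6% of the locus lies outside the overlapping gene Gm16712. Without the strand of the reads the 2 genes cannot be told apart there, so the value of Ebi3 is uncertain to that extent. It stood at 0.0948, 2.76, 6.50 and 1.54 CPM in the YFP+ libraries 21, 46, 48 and 53, against 15.1, 13.1, 26.2 and 10.3 CPM in the YFP- libraries. Each YFP+ library lay below every YFP- library, and unlike Il1rl1 the transcript was still present, at 67 to 338 counts, in the YFP+ libraries 46, 48 and 53. The means were 2.72 ± 2.75 CPM in YFP+ and 16.2 ± 6.94 CPM in YFP- libraries (SD, n = 4 each), and edgeR put the log2 fold change at -2.56 ± 1.02 (standard error) with unadjusted p = 0.0350 and adjusted p = 0.360. Without the YFP+ library 21 the log2 fold change was -2.17 and the adjusted p 0.0755, in a fit of edgeR that called 3.97% of genes lower.

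Il10, which encodes the suppressive cytokine IL-10, had the smallest difference of the 9. It lies on chromosome 1 from 131019845 to 131024974. It had 6.26, 3.87, 4.16 and 3.94 CPM in the YFP+ libraries 21, 46, 48 and 53, against 7.14, 4.02, 5.31 and 4.99 CPM in the YFP- libraries. The groups overlapped, and library 21, which had hardly any transcript of the other 8, held the highest Il10 value of the YFP+ fraction. The means were 4.56 ± 1.14 CPM in YFP+ and 5.36 ± 1.30 CPM in YFP- libraries (SD, n = 4 each), and edgeR put the log2 fold change at -0.24 ± 0.45 (standard error) with adjusted p = 0.867, a difference within the spread between libraries. The 2 suppressive cytokine genes thus stood in unlike ratios. For every 100 counts of Il10 there were 1.52, 71.3, 156 and 39.0 counts of Ebi3 in the YFP+ libraries 21, 46, 48 and 53, against 211, 325, 493 and 207 in the YFP- libraries.

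Among 14 genes listed for IL-10 and IL-12 family subunits and receptors, 10 were tested and 0 passed the threshold over all libraries. The 8 of these that are not among the 9 had a median log2 fold change of -0.53. Without the YFP+ library 21, 1 of them fell, Il12rb1, a receptor chain shared by IL-12 and IL-23. It stood at 0.0948, 7.30, 3.35 and 7.93 CPM in the YFP+ libraries 21, 46, 48 and 53, against 15.3, 24.2, 44.2 and 29.4 CPM in the YFP- libraries. Its log2 fold change was -2.60 over all libraries (adjusted p = 0.360) and -2.20 without the YFP+ library 21 (adjusted p = 0.0402, both from edgeR). The partner subunits of Ebi3 were close to absent: Il27 stayed under 0.07 CPM and Il12a under 1.6 CPM in every library.

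Areg encodes amphiregulin, the repair factor of tissue Treg cells. It lies on chromosome 5 from 91139599 to 91148432. It was the lowest of the 9, with 0, 0, 0 and 6 counts in the YFP+ libraries 21, 46, 48 and 53, against 102, 23, 23 and 89 counts in the YFP- libraries. In CPM these were 0, 0, 0 and 0.138 in YFP+ and 1.35, 0.287, 0.475 and 1.23 in YFP- libraries, so the single YFP+ library with counts lay below all YFP- libraries. By edgeR the log2 fold change was -4.44 ± 1.33 (standard error), with unadjusted p = 0.0100 and adjusted p = 0.237, a fitted value that depends on the prior count, and DESeq2 gave -4.53 with an adjusted p of 0.0169. Over the 14 other settings in which Areg was tested, its adjusted p ranged between 0.0169 and 0.536.

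Of 10 genes listed as EGF family ligands, receptors and sheddase, 7 were tested and 0 passed the threshold, with and without the YFP+ library 21, and the 6 apart from Areg had a median log2 fold change of -0.14. Hbegf, a related ligand, had 0.616, 5.34, 0.962 and 0.0688 CPM in the YFP+ libraries 21, 46, 48 and 53, against 3.55, 2.70, 3.12 and 3.38 CPM in the YFP- libraries, and its groups overlapped. Ereg, Tgfa and Epgn, ligands of the same family, stayed under 0.24 CPM in every library. Adam17, the protease that frees amphiregulin from the cell surface, measured 98.7 to 279 CPM in YFP+ libraries, against 87.8 to 100 CPM in YFP- libraries (log2 fold change 0.75, adjusted p = 0.407 from edgeR).

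Gzmb encodes granzyme B, a protease with which cytotoxic cells and activated Treg cells kill target cells. It lies on the minus strand of chromosome 14 from 56258838 to 56262260. It stood at 0, 1.29, 1.83 and 0 CPM in the YFP+ libraries 21, 46, 48 and 53, against 6.81, 3.21, 17.3 and 3.16 CPM in the YFP- libraries. The YFP+ libraries 21 and 53 held 0 counts, and the highest YFP+ value stayed below the lowest YFP- value. The means were 0.780 ± 0.927 CPM in YFP+ and 7.61 ± 6.66 CPM in YFP- libraries (SD, n = 4 each), and edgeR put the log2 fold change at -3.27 ± 1.65 (standard error) with adjusted p = 0.448.

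The other granule genes did not share one direction. Of 14 listed, 13 were tested, 6 of these had a log2 fold change below 0, and 0 passed the threshold over all libraries. The median log2 fold change of the 12 apart from Gzmb was 0.15. Gzma, granzyme A, had 0, 7.50, 26.1 and 0 CPM in the YFP+ libraries 21, 46, 48 and 53, against 2.24, 0.574, 2.23 and 0.732 CPM in the YFP- libraries, so 2 YFP+ libraries lay above and 2 below every YFP- library. Gzmm, granzyme M, was lower like Gzmb, with 0, 0, 0 and 0.894 CPM in the YFP+ libraries, against 4.90, 3.46, 0.723 and 1.01 CPM in the YFP- libraries. Its log2 fold change was -3.46 (adjusted p = 0.461 from edgeR), and its groups overlapped. Gzmc overlapped as well (log2 fold change -0.33, adjusted p = 0.943 from edgeR), and Gzmk was not tested. Prf1, perforin, stood at 0, 2.29, 23.8 and 5.48 CPM in the YFP+ libraries, against 12.3, 16.3, 11.6 and 13.5 CPM in the YFP- libraries (log2 fold change -0.76, adjusted p = 0.854 from edgeR). Ctsc, cathepsin C, which activates granzymes, had 232, 243, 361 and 261 CPM in the YFP+ libraries, all above the 124, 119, 99.3 and 150 CPM of the YFP- libraries. Ctsc had a log2 fold change of 1.16 over all libraries (adjusted p = 0.0636) and rose without the YFP+ library 21 (1.22, adjusted p = 0.0197, both from edgeR).

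Ifng encodes interferon gamma, the leading cytokine of Th1 cells, which Treg cells can also make. It lies on chromosome 10 from 118441046 to 118445892, where only 43.8% of the locus lies outside the overlapping gene Gm49751, and the same uncertainty holds. It stood at 0, 1.14, 2.19 and 0 CPM in the YFP+ libraries 21, 46, 48 and 53, against 4.53, 4.28, 3.62 and 3.22 CPM in the YFP- libraries. The pattern was that of Gzmb: 0 counts in the YFP+ libraries 21 and 53, intermediate values in 46 and 48, and all below the YFP- libraries. The means were 0.832 ± 1.05 CPM in YFP+ and 3.91 ± 0.601 CPM in YFP- libraries (SD, n = 4 each), and edgeR put the log2 fold change at -2.22 ± 1.52 (standard error) with adjusted p = 0.560.

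Among 13 effector T cell cytokine genes listed, 4 were tested and 0 passed the threshold with or without the YFP+ library 21, and the 3 apart from Ifng had a median log2 fold change of -0.51. Tnf, the tumour necrosis factor gene, had 0, 3.50, 3.14 and 0 CPM in the YFP+ libraries 21, 46, 48 and 53, against 21.7, 11.0, 9.57 and 16.6 CPM in the YFP- libraries (log2 fold change -3.14, adjusted p = 0.468 from edgeR). The Th1 regulator Tbx21 stood at 0.0474, 3.43, 12.8 and 0.0458 CPM in the YFP+ libraries, against 7.46, 10.8, 21.8 and 7.10 CPM in the YFP- libraries, and the groups overlapped. Eomes, a further Th1 regulator on the list, had 0, 0, 0.327 and 0.0688 CPM in the YFP+ libraries, against 3.28, 1.63, 0.145 and 1.98 CPM in the YFP- libraries. Its log2 fold change was -4.05 (adjusted p = 0.322 from edgeR), and its groups overlapped too. Of the 7 listed Th1 regulators and interferon gamma receptor genes, 6 were tested and 4 of these were below 0. Their median log2 fold change was -0.92, and 0 passed the threshold. Il4, Il5, Il13, Il17a and Il22 stayed under 0.41 CPM in every library. Il17f had 13.8 CPM in the YFP+ library 21 and at most 0.0229 CPM in every other library. Csf2 was at 0 throughout, but only 13.7% of its locus overlaps no other annotated gene, so its level is uncertain.

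**Figure D3:**
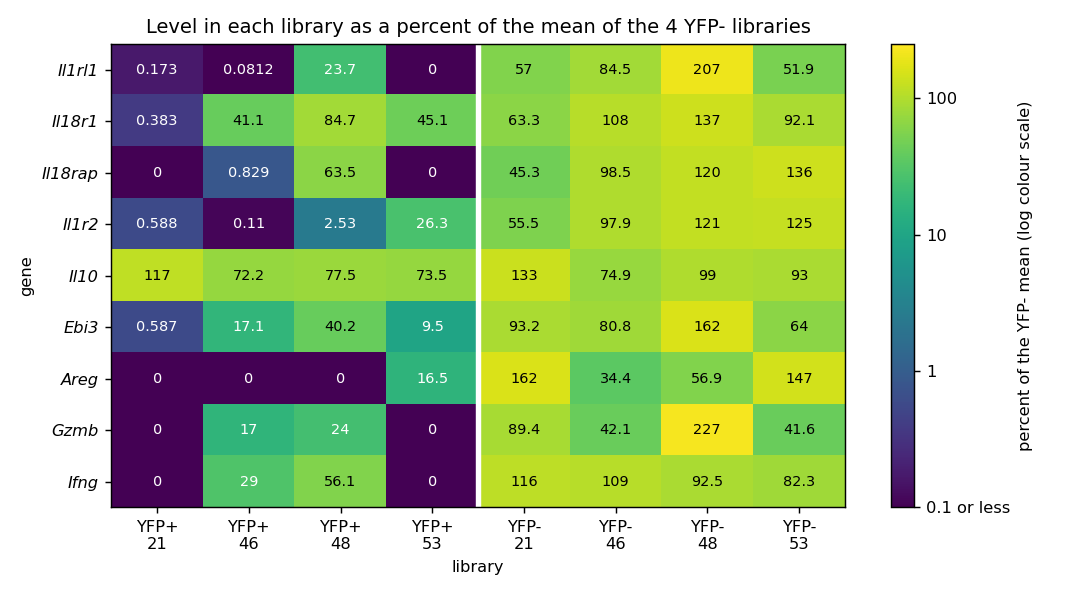
Each gene's level in each library as a percent of the mean of the 4 YFP- libraries, with YFP+ libraries at left and the colour on a log scale. Il10 stays between 72.2% and 117% in all YFP+ libraries, and the other 8 genes are at or under 0.588% in the YFP+ library 21.

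Set side by side, the YFP+ libraries did not resemble each other. Genes with 3 counts or fewer numbered 7 of the 9 in library 21, 3 in library 46, 1 in library 48 and 4 in library 53, and 0 in each YFP- library. Among the 7991 genes tested that had a YFP- mean within the range of the 9, the share with 3 counts or fewer was 39.7%, 5.78%, 3.44% and 13.3% in the YFP+ libraries 21, 46, 48 and 53, and 0.0626% to 0.726% in YFP- libraries. The median level of the 9, as a percent of each gene's YFP- mean, was 0.173%, 17.0%, 40.2% and 9.50% in the YFP+ libraries 21, 46, 48 and 53, against a median of 7.81%, 89.3%, 92.1% and 81.6% for those 7991 genes. Of the YFP+ libraries, 48 held the highest YFP+ value of 6 of the 9 (Il1rl1, Il18r1, Il18rap, Ebi3, Gzmb and Ifng).

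The exact two-sided permutation test on log2(CPM + 1), computed for each gene on its own and not adjusted for the 9 tests, gave p = 0.0286 for the 6 genes whose groups do not overlap. This is the smallest p that 4 against 4 libraries can give, and it was reached, in either direction, by 18.4% of genes tested. The exact p was 0.0571 for Il18r1 and Il18rap and 0.314 for Il10.

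**Figure D4:**
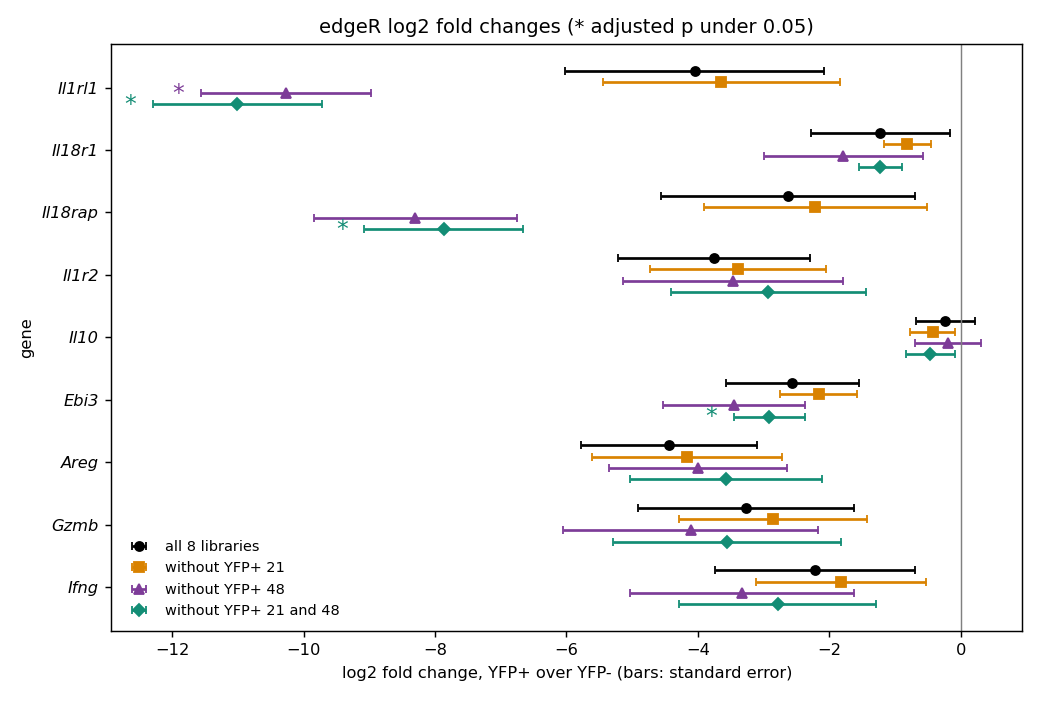
Log2 fold changes of YFP+ over YFP- libraries with standard errors, from edgeR, over all 8 libraries and without the YFP+ libraries 21, 48 or both; an asterisk marks an adjusted p under 0.05. All points lie below 0, and Il1rl1 and Il18rap move furthest when library 48 is left out.

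Without both the YFP+ libraries 21 and 48, 3 of the 9 passed the threshold, in a fit that called 4.28% of genes lower and compared 2 with 4 libraries. These were Il1rl1 (adjusted p = 0.0175), Il18rap (log2 fold change -7.87, adjusted p = 0.0263) and Ebi3 (log2 fold change -2.92, adjusted p = 0.0360, all from edgeR). Library 48 held the highest YFP+ value of all 3, so leaving it out favours them, and these p-values are only a description. Il10 then had a log2 fold change of -0.46 and still missed the threshold. The groups of all 9 were then apart, as were those of 20.5% of genes tested, since fewer libraries separate more easily. They were apart for 8 of the 9 without the YFP+ library 48 alone (15.6% of genes tested) and for 8 without the YFP- library 21 alone (11.9%). Without the YFP+ library 21 alone, 0 of the 9 passed, and their median log2 fold change was -2.22.

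Per kilobase of exon, the order of the YFP- means was Il1r2 at 21.1, Ebi3 at 14.0, Il18r1 at 7.72, Gzmb at 5.30, Il10 at 4.09, Il1rl1 at 3.98, Ifng at 3.02, Il18rap at 2.39 and Areg at 0.688 CPM per kilobase. Each gene's range over the YFP- libraries overlapped that of the next in this order. Exon lengths were not reduced where other genes overlap, so the places of Il1r2, Ebi3 and Ifng are uncertain. In the YFP+ fraction Il10 led at 3.48 CPM per kilobase, followed by Il18r1 at 3.30, Ebi3 at 2.36 and Il1r2 at 1.56, with Ifng, Gzmb, Il18rap, Il1rl1 and Areg under 0.65. This order rested on the YFP+ library 21. Without it, Il18r1 led at 4.39, followed by Ebi3 at 3.12, Il10 at 3.05 and Il1r2 at 2.04 CPM per kilobase. The ranges of these 4 genes overlapped over the YFP+ libraries.

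The partner and signalling genes of these receptors were measured as well. Il1rap, the accessory chain that ST2 shares with the IL-1 receptor, had 216, 33.1, 17.5 and 41.9 CPM in the YFP+ libraries 21, 46, 48 and 53, against 27.9, 31.6, 24.2 and 14.6 CPM in the YFP- libraries (log2 fold change 1.65, adjusted p = 0.424, and 0.31 without the YFP+ library 21, adjusted p = 0.647, both from edgeR). The accessory chain was therefore present where Il1rl1 was at or near 0. Of 17 genes listed as IL-1 family receptors and signalling molecules, 16 were tested and 0 passed the threshold with or without the YFP+ library 21. The 12 tested that are not among the 9 had a median log2 fold change of 0.06, with 6 of the 12 below 0. Myd88, the adaptor, had a listed count of 0 throughout, and other annotated genes cover it entirely. Of 7 ligands and soluble antagonists of the family, 3 were tested and 0 passed the threshold, with a median log2 fold change of 0.27. The ligand gene Il33 stayed under 0.97 CPM in every library except the YFP+ library 48, at 2.89 CPM.

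Among 11 transcription factors listed for tissue Treg cells, all 11 were tested and 0 passed the threshold over all libraries, with a median log2 fold change of -0.63. Without the YFP+ library 21, 1 fell, Batf, which drives the tissue Treg programme. Batf had 66.0, 92.7, 72.9 and 90.8 CPM in the YFP+ libraries 21, 46, 48 and 53, against 134, 155, 178 and 140 CPM in the YFP- libraries, with a log2 fold change of -0.91 over all libraries (adjusted p = 0.114) and -0.84 without library 21 (adjusted p = 0.0255, both from edgeR). Gata3, a regulator of ST2 in Treg cells, stood at 28.0, 396, 311 and 457 CPM in the YFP+ libraries, against 391, 322, 395 and 393 CPM in the YFP- libraries. Outside library 21 its values overlapped between the fractions (log2 fold change 0.04 without that library, adjusted p = 0.894 from edgeR). Maf, which promotes Il10 in T cells, had 0.190, 8.93, 10.6 and 0 CPM in the YFP+ libraries, against 78.9, 100, 93.5 and 64.1 CPM in the YFP- libraries (log2 fold change -4.09, adjusted p = 0.354 from edgeR), so its groups were apart where those of Il10 overlapped. Nfil3 was apart too, with at most 0.308 CPM in YFP+ and at least 4.11 CPM in YFP- libraries (log2 fold change -5.51, adjusted p = 0.151, and adjusted p = 0.050 without library 21, marginally above the threshold, both from edgeR).

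Markers of other cell types differed between the fractions. T cell transcripts were present: Cd3e, Cd3d, Cd3g, Cd4, Il2ra, Ikzf2 and Ctla4 were measured in every library. The 8 T cell and Treg markers summed to 3714 to 5618 CPM in YFP+ libraries, against 4363 to 4764 CPM in YFP- libraries. The sum hides spread between YFP+ libraries: Cd4 had 84.4 CPM in library 21, against 410 to 599 CPM in libraries 46, 48 and 53. Ikzf2 had 897, 519, 144 and 107 CPM in the YFP+ libraries 21, 46, 48 and 53. The sum also hides a difference in Ctla4, the 1 gene of this list that passed the threshold. Ctla4 had 121 to 193 CPM in YFP+ libraries, against 350 to 423 CPM in YFP- libraries (log2 fold change -1.26, adjusted p = 0.0373 from edgeR). Foxp3, the defining Treg factor, had a listed count of 0 throughout, and other annotated genes cover it entirely. These counts therefore do not check how many cells of each fraction were Treg cells. Summed B cell markers were 120 to 1820 CPM in YFP+ libraries, against 65.6 to 98.3 CPM in YFP- libraries (1 of 6, Ms4a1, also covered by other genes, was at 0 throughout). MHC class II genes summed to 913 to 16045 CPM in YFP+ libraries, against 484 to 772 CPM in YFP- libraries, and macrophage and dendritic cell markers to 34.7 to 411 CPM in YFP+ libraries, against 4.56 to 11.9 CPM in YFP- libraries. The highest sum of each of these 3 lists was that of the YFP+ library 48, which also held the highest YFP+ value of 6 of the 9 genes.

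**Figure D5:**
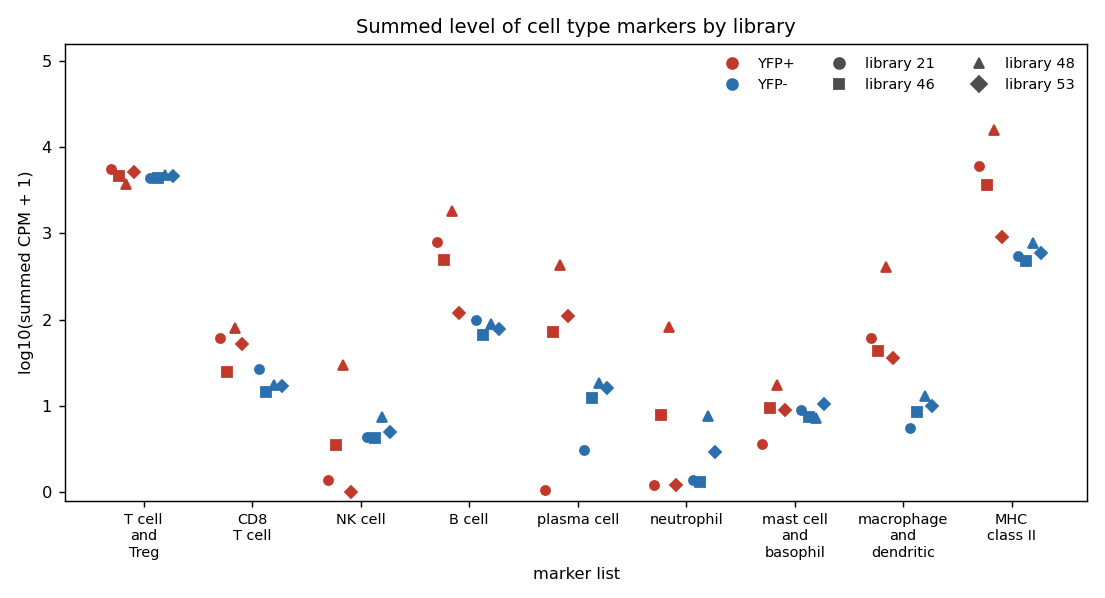
Summed CPM of each marker list by library, as log10(sum + 1), with YFP+ libraries (red) left of YFP- libraries (blue) and symbols for library numbers. The B cell, macrophage and MHC class II sums of the 4 YFP+ libraries all lie above those of the 4 YFP- libraries, with library 48 at the top.

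Markers of cells that themselves express some of the 9 were summed as well. NK cells express Gzmb, Ifng and the IL-18 receptor, and the 5 NK cell markers summed to 0.379, 2.52, 28.6 and 0 CPM in the YFP+ libraries 21, 46, 48 and 53, against 3.30, 3.26, 6.41 and 3.95 CPM in the YFP- libraries. Mast cells and basophils express Il1rl1, and of their 6 markers Mcpt8 and Mcpt4 were at 0 in all 8 libraries. The 6 summed to 2.56, 8.41, 16.4 and 7.82 CPM in the YFP+ libraries 21, 46, 48 and 53, against 6.18 to 9.57 CPM in YFP- libraries. The YFP+ library 48 thus held the highest of these sums and also the highest YFP+ value of Il1rl1. Neutrophils express Il1r2, and their 5 markers summed to 0.190, 6.75, 81.1 and 0.206 CPM in the YFP+ libraries 21, 46, 48 and 53, against 0.312 to 6.53 CPM in YFP- libraries. Il1r2 was highest in the YFP+ library 53, where the neutrophil sum was 0.206 CPM, and measured 1.02 CPM in library 48, where that sum was 81.1 CPM. Plasma cell markers summed to 0.0474 to 426 CPM in YFP+ libraries, against 2.07 to 17.6 CPM in YFP- libraries, and the 2 CD8 T cell markers to 23.6 to 79.7 CPM in YFP+ libraries, against 13.3 to 25.7 CPM in YFP- libraries. The part of other cells in the levels of the 9 was not tested.

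Genes most like each of the 9 were taken from those with a mean of at least 1 CPM, by Pearson's r of log2(CPM + 1) over the 8 libraries, 2 for each gene. The points share their libraries, and with them the YFP+ library 21 with its fewer detected genes, so r values are given as a description. Il1rl1 was most like Ttc39c (r = 0.994) and Hspb1 (0.990), Il18r1 like F2r (0.993) and Fpgt (0.992), Il18rap like Bbs2 (0.998) and Fut7 (0.991), and Il1r2 like Naprt (0.990) and Zfr2 (0.989). Ebi3 was most like Gm22175 (r = 0.992) and Gm11008 (0.987), Gzmb like Dedd (0.965) and Pcyox1l (0.954), and Ifng like Sec61a2 (0.995) and Snhg5 (0.994). Areg was most like Pipox (r = 0.984) and Cdkl4 (0.950), both past the threshold over all 8 libraries (log2 fold change -7.03 with adjusted p = 0.0449 and -4.64 with adjusted p = 0.0455 from edgeR). Neither passed without the YFP+ library 46 or 53 or without any one YFP- library, fits in which 0 genes of any kind passed. Il10 was most like Gipc3 (r = 0.961) and Dglucy (0.912).

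Among themselves, Il1rl1, Il18rap, Ebi3, Gzmb and Ifng correlated over the 8 libraries, with r between 0.794 (Il18rap and Gzmb) and 0.952 (Il1rl1 and Il18rap). This group was not set in advance, and other pairs were also high, such as Il18r1 and Ebi3 (0.858). The difference between the fractions, which these genes share, enters each r, so the values are only a description. Il10 stood outside, with r between -0.35 (with Il18r1) and 0.556 (with Areg).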

How the data were processed

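Bulk RNA of 4 YFP+ and 4 YFP- libraries was analysed. The authors deposited 1 table of raw counts, by Ensembl identifier, with a column per library. Columns were matched to libraries by names equal to their titles. Per the labels, libraries were made with a low-input kit, with STAR (aligner), Trim Galore (read trimming) and the build mm10 named in the submitters' processing notes. Versions, the strand used and the counting tool were not given in the sources used here.

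Counts were tested with edgeR 4.0.16 in R 4.3.3 (filterByExpr at its defaults, a count of 10 and a total of 15, then TMM, glmQLFit, glmQLFTest, fraction as the only term), adjusted by Benjamini-Hochberg over all genes tested, and called under 0.05. Standard errors were derived as the size of the log2 fold change over the square root of F. CPM use TMM-scaled library sizes, so the precision of low values is set by the depth of each library; intervals and floors cover counting error only, since no molecular identifiers are mentioned. Alternatives were DESeq2 1.42.0, RLE factors, a block for the library number, robust dispersion, no filter, a stricter filter (at least 5 CPM in 4 libraries), each library left out, and the YFP+ libraries 21 and 48 left out. The fit was run on simulated counts with known changes as a check of the code. At the dispersion of these data it recovered few of the changed genes. A gene that is not called here can therefore not be read as unchanged.

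The genes named are the 9, genes of 9 pathway lists that passed the threshold with or without the YFP+ library 21, neighbours on chromosome 1, close relatives and partner chains, and for each of the 9 the 2 genes most like it. Maf, Nfil3, Tnf, Tbx21, Eomes, Il17f, Gata3 and some low genes were named after their values were seen. The members, lists and settings were chosen with earlier results of these data known. Gene positions and exon lengths are from GENCODE M21, promoter sequences from RefSeq (both GRCm38).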

Additional observations from a re-analysis of the deposited data

Results flagged for a closer look

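Within a group of 4 libraries, a library was singled out where its gap to the nearest other library, divided by the range of the group, exceeded Dixon's 95% critical value for 4 values. This was the case in 5 of 18 groups, all of them YFP+. Chance flags about 1 in 20 independent groups, but these groups share their libraries, so the count cannot be read against that rate. In Il1rl1 the YFP+ library 48, at 6.50 CPM, had a ratio of 0.993, with the other 3 at or under 0.0474 CPM. In Il18rap the YFP+ library 48, at 10.2 CPM, had a ratio of 0.987, with the others at or under 0.134 CPM. In Il1r2 it was the YFP+ library 53, at 10.6 CPM, with a ratio of 0.908, and in Areg the same library, at 0.138 CPM, with a ratio of 1 because the other 3 were at 0. In Il10 the YFP+ library 21, at 6.26 CPM, had a ratio of 0.882, with the others between 3.87 and 4.16 CPM. Libraries 21, 48 and 53 thus each stood apart in at least 1 gene.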

How the results depend on the processing

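The log2 fold change of each of the 9 genes stayed below 0 in all 131 values from 15 alternatives. Of these, 126 kept their side of the threshold. The other 5 newly passed it: Areg with DESeq2, Il1rl1 without the YFP+ library 48, and Il1rl1, Il18rap and Ebi3 without the YFP+ libraries 21 and 48. Library 48 held the highest YFP+ value of each gene that passed without it. Thus 1 of the 9 passed with DESeq2, 3 without the YFP+ libraries 21 and 48, and 0 to 1 when one library was left out. The count of the 9 whose groups do not overlap was 6 to 8 when one library was left out, and 9 without the YFP+ libraries 21 and 48, where 20.5% of genes tested had groups apart. The stricter filter kept 5 of the 9. Over all genes, the count past the threshold was 131, and it was 10 without a filter, 9 with the stricter filter, 1310 with DESeq2, 940 without the YFP+ libraries 21 and 48, and 0 to 1052 when one library was left out. It was 0 (with 1130 to 2326 genes at an unadjusted p under 0.05 in edgeR) without any one YFP- library or without the YFP+ library 46 or 53, 1052 without the YFP+ library 21, and 236 without 48. The cause was not tested. RLE factors moved the log2 fold changes by a median of 0.02.

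Library numbers are shared by the fractions, and the labels do not say whether they pair the samples. Deviations of libraries with the same number correlated at 0.0489, 0.0682, 0.140 and 0.0950 for 21, 46, 48 and 53. Such low values do not exclude pairing. The main fit used no pairing, and a fit with it is given as an alternative. With the library number as a replicate block, 0 genes passed the threshold (1440 at an unadjusted p under 0.05 in edgeR) and 0 of the 9 (5 unadjusted). The libraries of numbers 46, 48 and 53, but not 21, correlated best with their own number. Areg had 0 counts in 3 YFP+ libraries, and Gzmb and Ifng had 0 in 2. By counting error only, a count of 0 allows 0.0577 to 0.142 CPM in YFP+ libraries. The lowest YFP- values were above this, at 0.287 CPM for Areg, 3.16 for Gzmb and 3.22 for Ifng. Without the YFP+ library 53, where Areg had its 6 counts, its fitted log2 fold change was -8.57.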
